A study of Mus musculus with 12 samples.

Results

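Potassium channel genes were followed in Pdgfra/GFP+ cells of the embryonic and postnatal mouse central nervous system. The set was every protein-coding gene whose symbol begins with Kcn, 94 of the 47072 genes in the deposited table. It held 40 voltage-gated channel genes, 15 inward rectifiers (Kcnj), 14 two-pore-domain channels (Kcnk), 8 calcium-activated and Slo-family channels, and 17 auxiliary or regulatory subunits. Of the 94, 74 reached 0.7 CPM (counts per 1000000 reads of a rescaled library size) in at least 3 libraries and were tested among 18319 genes. The other 20 were too low to test.

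Cells were sorted for GFP from heterozygous Pdgfra-H2BGFP knock-in mice, in which the Pdgfra promoter drives a nuclear GFP, so that every group carried the reporter allele. There were 4 groups of 3 libraries: forebrain (labelled brain) and spinal cord, each taken from E13.5 embryos and from P7 pups (E, embryonic day, and P, postnatal day). Animals of both sexes were used and pooled for the libraries, and the GFP protein outlasts Pdgfra mRNA, so early differentiating oligodendrocytes were also caught in the gate. The embryos were dissociated by pipetting and the pups with papain, and age cannot be told apart from this step.

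Potassium channels set the resting potential and shape the return of the membrane to rest after depolarization. Voltage-gated channels open on depolarization, inward rectifiers and two-pore channels carry the resting conductance, and calcium-activated channels couple the membrane to intracellular calcium. Oligodendrocyte precursor cells (OPCs) are known for large A-type and delayed outward currents that give way to inward rectifier currents as the cells mature, and Kir4.1, the product of Kcnj10, is the best known glial potassium channel.

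The libraries held 12566345 to 38790312 reads assigned to genes, and the member genes together received 4347 to 65389 of them. Replicate 3 of E13.5 spinal cord stood apart, with 40.97% of its reads in protein-coding genes against 82.4% to 91.2% in the other 11, and the fewest reads. Replicates 1 and 2 of P7 were very alike within each region (their log2 ratios had an SD of 0.069 in brain and of 0.075 in spinal cord, against 0.22 to 0.243 for pairs with replicate 3). The summed CPM of 8 OPC markers was 2168 to 4038 per library at E13.5 and 11262 to 12275 at P7. Of these, Vcan read 1107 to 3160 CPM at E13.5 and was called lower in spinal cord (-1.33) and not called in brain. The others were called higher at P7 in both regions. Other markers also differed. Leptomeningeal and fibroblast markers (6 genes) summed to 5869 to 12622 CPM at E13.5 and to 1058 to 2596 at P7, and all 6 were called lower at P7 in both regions. Neuronal markers (10 genes) summed to 827 to 1072 CPM at E13.5 and to 468 to 539 at P7, but not all moved alike. In brain Tubb3, Stmn2 and Slc17a6 were called lower at P7 and the rest were not called. In spinal cord these, Syt1 and Rbfox3 were called lower, Elavl3 was called higher (1.48) and the rest were not called. A set of 7 myelin genes summed to 1188 to 2721 CPM in P7 brain but to 10022 to 14894 in P7 spinal cord. In such pooled samples, fewer cells of a type and less RNA per cell cannot be told apart, and the part of these other cells in the results that follow was not tested.

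Summed over the set, potassium channel transcripts were more abundant at P7 in both regions. The summed level of the 94 genes was 659 ± 30.5 CPM in E13.5 brain (mean ± SD, n = 3) and 1828 ± 87.5 in P7 brain, a 2.77-fold difference. In spinal cord the sums were 796 ± 54.7 and 1713 ± 22.3 CPM, a 2.15-fold difference. The libraries of the 2 ages did not overlap in either region.

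The classes did not move by like amounts. Inward rectifiers summed to 15.6 to 24.7 CPM in the 6 embryonic libraries and to 143 to 171 CPM in the 6 postnatal ones, which was 8.50-fold higher at P7 in brain and 7.13-fold in spinal cord. Auxiliary subunits were 5.50-fold and 3.65-fold higher, and voltage-gated channels 2.60-fold and 2.31-fold. Two-pore channels were 1.78-fold higher in brain but 1.17-fold in spinal cord. Calcium-activated and Slo channels were the exception: in brain their sum was 92.5 ± 7.55 CPM before birth and 107 ± 2.92 after, and in spinal cord it was 160 ± 13.6 CPM at E13.5 against 112 ± 2.70 at P7. The sums add CPM without regard to gene length and describe the libraries only, with no test.

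**Figure D1:**
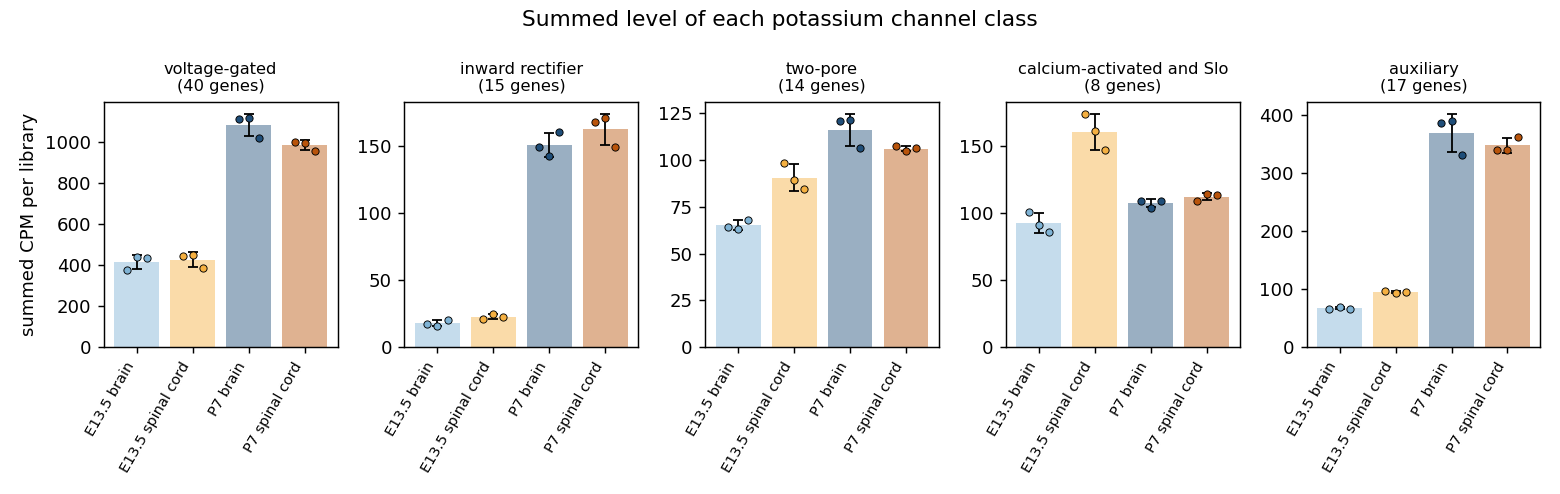
Summed CPM of each potassium channel class (y axis, 1 scale per panel) in the 4 groups. Bars show the group mean, points the 3 libraries and error bars the SD; inward rectifier sums stand at 15.6 to 24.7 CPM in the embryonic libraries and at 143 to 171 CPM in the postnatal ones, while the calcium-activated and Slo class peaks in E13.5 spinal cord.

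A few genes carried most of the difference. In brain, Kcnd2, Kcnip3, Kcna6, Kcnd3 and Kcna2 made up 70.7% of the net rise in summed CPM, and in spinal cord Kcnip3, Kcnd2, Kcna6, Kcna2 and Kcnj10 made up 81.9%. Longer transcripts weigh more in such shares. On a scale of CPM per kilobase of exon, the 5 highest members of E13.5 brain were Kcnd2 (13.51), Kcnk2 (6.85), Kcnt2 (6.73), Kcnd3 (6.44) and Kcnip3 (4.35). In E13.5 spinal cord Kcnk2 stood first (14.0), followed by Kcnd2 (10.3), Kcnt2 (9.52), Kcnd3 (7.78) and Kcne4 (7.15). By P7 the order had changed. Kcnip3 led in brain (71.5) and spinal cord (64.3), with Kcnd2 next (62.7 and 51.3) and Kcna6 after it (23.5 and 24.3). With the longest transcript as length, 5 of the first 6 members were shared in each group. Neighbours in these orders often lay within their spread: Kcnk2, at 6.85 ± 0.60 CPM per kilobase, and Kcnt2, at 6.73 ± 0.69 (SD, n = 3), could not be ordered in E13.5 brain.

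Each gene was then compared between ages with limma on log2(CPM + 0.5), and was called when the Benjamini-Hochberg adjusted p over all 18319 genes was under 0.05 and the fold change above 2. In brain, 35 members were called higher at P7 and 4 lower (47.3% and 5.41% of the 74 tested), against 11.0% and 16.7% of all genes tested. The median log2 change was 0.84 over the 74 members and -0.19 over all genes. In spinal cord, 30 were called higher and 11 lower (40.5% and 14.9%), against 16.9% and 18.2% of all genes. There the medians were 0.79 and 0.12. Counted over the 94 genes, untested ones included, the rises in brain and in spinal cord were 35 of 94 and 30 of 94. In all, 25 members were called higher at P7 in both regions, 1 was called lower in both, and 1 (Kcnt1) was called in opposite directions. Such joint counts were not taken over all genes, so they do not show whether the overlap is particular to the set. The age comparisons rest on separate libraries in the 2 regions.

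The deposited scaling placed the P7 brain libraries lower than the others: their scaled sizes were 0.129 to 0.17 log2 units above those from TMM factors, and those of the other 9 libraries 0.048 below. With TMM rescaling the all-gene median change in brain was -0.01 in place of -0.19. On that scale 37 members were called higher and 3 lower in brain, against 2449 and 2511 of all 18244 genes tested.

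**Figure D2:**
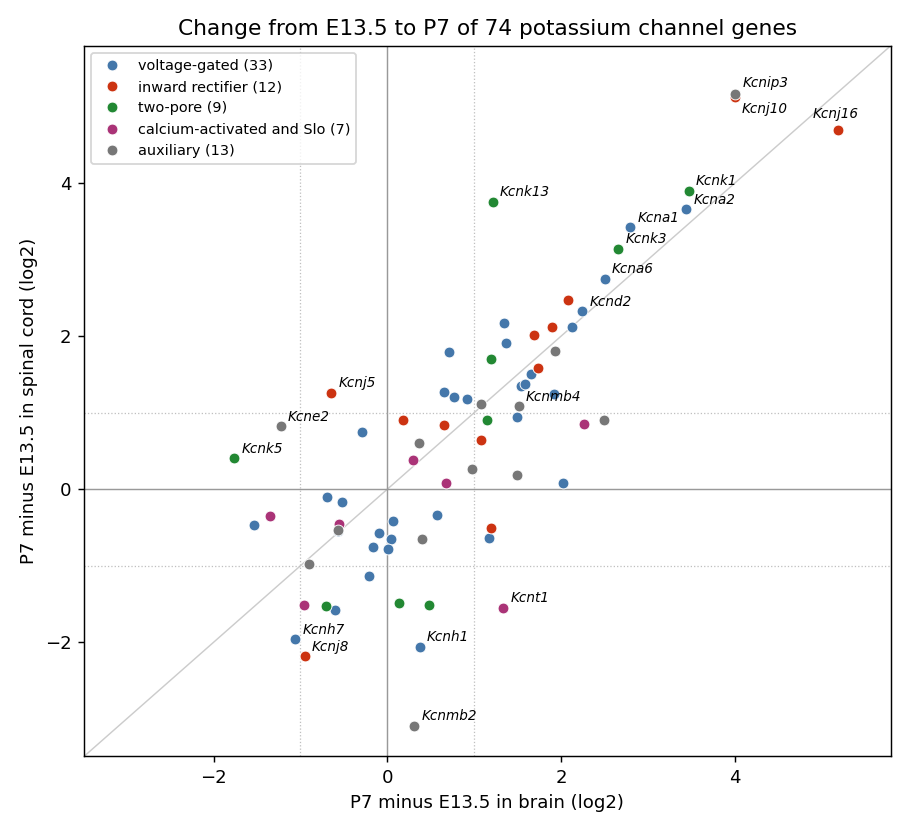
Log2 change from E13.5 to P7 in brain (x axis) and spinal cord (y axis) of the 74 members tested, 1 point per gene, coloured by class. The diagonal marks equal changes and dotted lines a 2-fold change; most points lie in the upper right, with Kcnj10, Kcnj16 and Kcnip3 farthest out, while Kcnt1 lies to the lower right and Kcnmb2 lowest, at -3.09 in spinal cord.

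Among voltage-gated genes, 14 of 33 tested were called higher and 2 lower at P7 in brain, and 15 higher and 4 lower in spinal cord. The Kv4 genes encode fast-inactivating A-type channels, and Kcnd2 was the highest voltage-gated member per kilobase of exon in both P7 groups. Kcnd2 (Kv4.2) measured 46.6, 78.3 and 84.0 CPM in E13.5 brain and 348, 342 and 280 in P7 brain. In spinal cord it went from 54.6, 62.5 and 41.7 CPM to 263, 267 and 263. All postnatal libraries thus lay far above all embryonic ones, by 2.25 ± 0.20 log2 units in brain (SE, limma adjusted p = 9.8e-07) and 2.33 ± 0.20 in spinal cord (adjusted p = 4.5e-07). Kcnd3 (Kv4.3) rose from 51.6, 71.6 and 61.8 CPM to 185, 184 and 153 in brain, by 1.49 ± 0.16 log2 units. In spinal cord its libraries read 82.1, 85.9 and 55.8 CPM and then 140, 139 and 145, a log2 difference of 0.95 ± 0.16 that lay just under the 2-fold limit. Kcnd1, the remaining Kv4 gene, differed by -0.16 in brain and -0.75 in spinal cord and was not called.

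Most Kv1 genes encode delayed rectifiers of axons and glia, and 3 of them rose by more than 2 log2 units in both regions. Kcna6 (Kv1.6) measured 22.8, 21.7 and 28.5 CPM in E13.5 brain and 148, 147 and 125 in P7 brain, with 20.4, 20.7 and 21.8 and then 151, 153 and 129 in spinal cord. Its log2 changes were 2.51 ± 0.11 and 2.75 ± 0.11 (limma adjusted p = 3.2e-09 and 9.5e-10). Kcna2 (Kv1.2) rose from 7.98, 12.9 and 10.4 CPM to 110, 115 and 125 in brain and from 10.9, 11.3 and 4.89 to 115, 116 and 109 in spinal cord, by 3.45 and 3.66 log2 units. Kcna1 (Kv1.1) rose by 2.80 and 3.43. Kcna4, the A-type member of the family, rose by 2.02 in brain. The 3 lie on chromosomes 6 and 3 beside further Kv1 genes that moved less: Kcna5 (Kv1.5), within 105 kb of Kcna1, stayed between 0.311 and 1.35 CPM in every library and was called in neither region, and Kcna3 (Kv1.3), 63.1 kb from Kcna2, was called only in spinal cord, where it rose by 1.79 from 1.73 to 2.13 CPM to 7.26 to 9.13. Kcna6 shares 39.6% of its exon bases with an antisense gene that itself averaged 0.132 CPM.

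Kcnb2, which encodes a delayed rectifier, differed by -0.52 in brain and -0.16 in spinal cord and was not called. Of the Kv3 genes, which serve fast firing, Kcnc4 was called higher in both regions and Kcnc1 only in spinal cord (1.18, against 0.92 in brain), a contrast between regions that did not pass its own test. Silent subunits, which form channels only together with other voltage-gated subunits, were mixed. Kcnf1 and Kcnv1 rose in both regions, by 1.37 and 1.91 and by 1.34 and 2.18, whereas Kcng3 fell by 1.53 in brain, from 1.01 to 1.57 CPM to 0.0661 to 0.211. Kcng3 reached 0.7 CPM only in the 3 E13.5 brain libraries, so it passed the filter only through the group it fell from.

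Among the Kv7 genes, which carry the M current, Kcnq5 rose by 2.12 in both regions, from 3.71 to 5.23 CPM to 17.2 to 24.0. Kcnq3 was called in spinal cord (1.27) and not in brain (0.65), and the difference between the regions was not called.

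Members of the ether-a-go-go family moved in several directions. Kcnh7, which encodes an ERG-type channel, was the single member called lower at P7 in both regions. It measured 35.3, 35.3 and 36.4 CPM in E13.5 brain and 16.1, 19.0 and 15.7 in P7 brain, with 25.2, 23.1 and 26.3 and then 6.24, 5.77 and 6.08 in spinal cord. The ages did not overlap. The fall was 1.96 log2 units in spinal cord (SE 0.10, limma adjusted p = 4.3e-09) and 1.06 in brain, where the call was lost with TMM or median-ratio scaling because the difference then stood under 2-fold. Kcnh5 rose by 1.59 and 1.38, and Kcnh2, Kcnh4 and Kcnh8 were called in no comparison.

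Auxiliary subunits of the A-type channels rose with them. Kcnip3 encodes a calcium-binding protein of the KChIP family that joins Kv4 channels and is also known as the transcriptional repressor DREAM. It measured 12.6, 17.96 and 15.7 CPM in E13.5 brain against 265, 269 and 228 in P7 brain. In spinal cord it went from 5.96, 7.16 and 4.72 CPM to 218, 222 and 243. No other auxiliary gene came near these postnatal levels per kilobase. Its log2 change was 4.01 ± 0.15 in brain and 5.16 ± 0.15 in spinal cord (limma adjusted p = 7.3e-10 and 1.1e-10). Kcnip1 rose by 1.93 and 1.81, Kcnip2 by 2.5 in brain, and Kcnip4 was not called between ages. The DPP-like proteins Dpp6 and Dpp10, which also accompany Kv4 channels and carry no Kcn symbol, rose too. Dpp6 went from 25.1, 29.1 and 34.1 CPM to 171, 167 and 145 in brain and from 44.4, 48.0 and 39.8 to 160, 154 and 148 in spinal cord.

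Of the other auxiliary genes, Kcnab2, a beta subunit of Kv1 channels, rose by 1.08 and 1.12, and Kcnmb4, a beta subunit of the BK channel, by 1.52 and 1.09. These values lie close to the 2-fold limit: the Kcnab2 call was lost in brain without replicate 1 of E13.5 brain (0.98), and in spinal cord without replicate 2 of E13.5 spinal cord (0.97). Kcnmb2, a BK beta subunit that inactivates the channel, moved the other way. It measured 17.9, 13.7 and 13.2 CPM in E13.5 spinal cord and 1.09 to 2.35 CPM in each of the other 9 libraries, and it fell by 3.09 log2 units in spinal cord (SE 0.19, limma adjusted p = 2.6e-08).

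Among inward rectifiers, Kcnj10 and Kcnj16 rose most. Of 12 tested, 8 were called higher in brain and none lower, and 7 higher and 1 lower in spinal cord. Kcnj10 (Kir4.1) measured 1.76, 3.69 and 6.27 CPM in E13.5 brain and 59.4, 56.0 and 77.0 in P7 brain. In spinal cord it read 2.20, 2.93 and 1.52 CPM and then 98.2, 98.8 and 81.8. The embryonic brain libraries spread widely among themselves, but every postnatal library exceeded all of them. The log2 change was 4.0 ± 0.32 in brain and 5.13 ± 0.32 in spinal cord (limma adjusted p = 3.3e-07 and 2.2e-08). Kcnj16 (Kir5.1), a subunit that pairs with Kir4.1, went from 0.427, 1.32 and 1.18 CPM to 57.6, 54.3 and 43.3 in brain and from 0.476, 0.400 and 0.506 to 24.9, 25.1 and 23.0 in spinal cord, by 5.20 and 4.69 log2 units. That was the largest change of any member in brain. Astrocytes also express both genes. Aqp4, an astrocyte marker, read 0 to 0.427 CPM in the embryonic libraries and 14.9 to 45.2 in the postnatal ones. The sum of 6 astrocyte markers was 513 to 802 CPM at E13.5 and 454 to 674 at P7, but its members moved apart. Most of the embryonic sum was Gja1, which read 468 to 748 CPM at E13.5 and 35.5 to 90.9 at P7 and was called lower in both regions. Aqp4, Slc1a2, Gfap and S100b were called higher at P7 in both regions, and Aldh1l1 in brain alone. The part of astrocytes in the Kcnj10 and Kcnj16 levels was not tested.

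The strongly rectifying Kir2 genes rose from low levels. Kcnj12 (Kir2.2) rose by 2.08 and 2.47 and Kcnj4 (Kir2.3) by 1.74 and 1.58, whereas Kcnj2 (Kir2.1) rose in brain by 1.08 and differed by 0.64 in spinal cord. The Kcnj2 call was lost without replicate 2 of E13.5 brain (0.85). Genes of the G-protein-gated channels divided. Kcnj3 (GIRK1) rose from 2.87 to 5.73 CPM to 12.4 to 21.1, by 1.69 in brain and 2.02 in spinal cord, and Kcnj9 (GIRK3), whose gene lies 11.9 kb from Kcnj10, rose by 1.90 and 2.12. Kcnj6 (GIRK2) rose in brain alone by the calls (1.2, against -0.50 in spinal cord), and Kcnj5 (GIRK4) in spinal cord alone (1.26, against -0.64). For both, the difference between the regions passed its own test.

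Kcnj8 (Kir6.1), the pore of the ATP-sensitive channel of vascular mural cells, was the one inward rectifier that fell. It measured 4.23, 4.09 and 7.42 CPM in E13.5 spinal cord and 1.11, 0.463 and 0.682 at P7. In brain it went from 1.71, 0.790 and 1.82 CPM to 0.182, 0.430 and 0.951, with overlap. The fall of 2.18 in spinal cord was called (SE 0.33, limma adjusted p = 7.0e-05) and the difference of -0.95 in brain was not, although the difference between these changes did not pass its own test in limma (1.24 ± 0.47, adjusted p = 0.053). It passed with a replicate block (adjusted p = 0.0295), with TMM (0.0478) or median-ratio scaling (0.0364), with a pseudocount of 1, and without replicate 1 of P7 brain (log2 difference 1.49) or of P7 spinal cord (1.43). Its partner Abcc9 (SUR2) fell with it, by 1.65 in brain and 2.11 in spinal cord. Of 7 pericyte markers, 2 were too low to test. In spinal cord the other 5 were called lower at P7, and in brain 3 were called lower, 1 (Rgs5) higher and 1 was not called. Their sum was 343 to 561 CPM in E13.5 brain and 283 to 336 in P7 brain, and 610 to 722 in E13.5 spinal cord against 94.9 to 163 at P7. The part of these cells in the fall of Kcnj8 was not tested. Kcnj11 (Kir6.2) was not called.

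**Figure D3:**
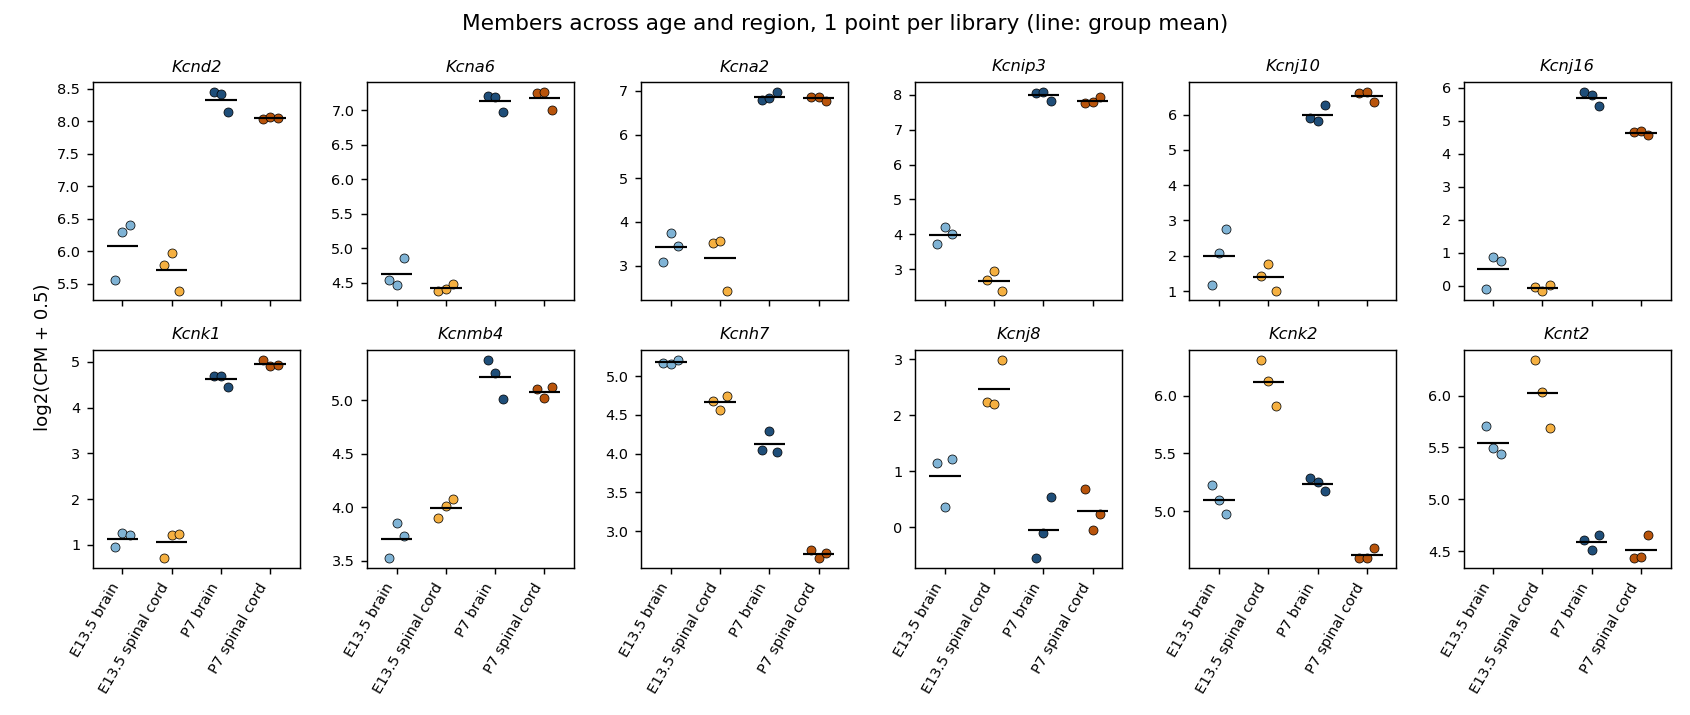
Levels of 12 members as log2(CPM + 0.5) on the y axis (scale set for each panel) in the 4 groups on the x axis, 1 point per library and a line at the group mean. Kcnd2, Kcna6, Kcna2, Kcnip3, Kcnj10, Kcnj16, Kcnk1 and Kcnmb4 are higher in every P7 library than in any E13.5 library, Kcnh7 and Kcnt2 are lower in every P7 library, and Kcnk2 stands highest in E13.5 spinal cord.

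Two-pore channels, the background or leak channels, divided evenly in spinal cord, where 4 of 9 tested were called higher and 3 lower at P7. In brain 5 were called higher and 1 lower. Kcnk1 (TWIK1) rose from 1.43, 1.89 and 1.82 CPM to 25.3, 25.4 and 21.5 in brain and from 1.13, 1.82 and 1.86 to 32.3, 29.6 and 29.8 in spinal cord. The ages stood far apart, by 3.47 ± 0.16 and 3.91 ± 0.16 log2 units (limma adjusted p = 3.9e-09 and 9.5e-10). Kcnk3 (TASK1) rose by 2.66 and 3.14, and Kcnk12 (THIK2) by 1.19 and 1.70. Kcnk2 (TREK1), a mechanosensitive channel and among the most abundant embryonic members per kilobase, did not change in the same way. It read 36.9, 33.8 and 30.9 CPM in E13.5 brain and 38.5, 37.6 and 35.6 in P7 brain, with a log2 difference of 0.14 ± 0.10, and fell in spinal cord from 78.7, 69.3 and 59.7 to 23.6, 23.6 and 25.2 CPM, by 1.49 log2 units (SE 0.10, limma adjusted p = 6.7e-08). Kcnk5 (TASK2) was the two-pore gene that fell in brain, by 1.76, from 5.53 to 8.15 CPM to 1.48 to 1.74. Kcnk6 and Kcnk9 fell in spinal cord by 1.52 and 1.51.

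Calcium-activated and Slo-family channels showed few rises. Kcnma1, the pore of the large-conductance BK channel, read 7.03, 8.21 and 9.01 CPM in E13.5 brain and 41.7, 40.9 and 39.1 in P7 brain, a rise of 2.26 log2 units (SE 0.13, limma adjusted p = 2.0e-08). In spinal cord it was already 24.2, 25.2 and 34.4 CPM at E13.5 and reached 48.3, 50.6 and 51.4, a difference of 0.85 under the 2-fold limit. Without replicate 3 of E13.5 spinal cord that difference was 1.01 and was called. Kcnt2 (Slick), a sodium-activated channel, fell in spinal cord from 80.6, 65.1 and 51.1 CPM to 21.1, 21.2 and 24.7, by 1.51, and differed by -0.96 in brain. Kcnn2, a small-conductance calcium-activated channel, fell in brain by 1.35, from 11.2 to 12.1 CPM to 4.09 to 4.40, while Kcnn1 and Kcnn3 were not called.

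Kcnt1 (Slack), the relative of Kcnt2, was the one member with called changes in opposite directions. It measured 8.27, 6.46 and 4.88 CPM in E13.5 brain and 16.2, 16.8 and 17.7 in P7 brain, but 38.8, 39.8 and 27.5 in E13.5 spinal cord and 11.9, 11.6 and 11.4 at P7. It thus rose by 1.33 in brain and fell by 1.55 in spinal cord, and the regions drew together from an embryonic difference of -2.36 to 0.52. The test of the difference between the regional changes gave 2.88 ± 0.25 (limma adjusted p = 6.5e-06).

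Sequence upstream of a transcript start of 3 members is shown for the steep rises and the fall described above. They were the members with the largest mean rises (Kcnj10 and Kcna2) and the largest mean fall (Kcnj8) over both regions among 22 with a single RefSeq promoter entry whose start also opens a GENCODE transcript. The windows are the 250 bases before the start in GRCm38.p6, from RefSeq, at chr1:172340960-172341209 on the plus strand for Kcnj10, chr3:107101317-107101566 on the plus strand for Kcna2 and chr6:142571615-142571864 on the minus strand for Kcnj8, each written 5′ to 3′. The Kcna2 window lies inside the annotated gene, which begins at 107101146, and so precedes a later start than the first. Capitals mark matches on either strand to an E-box (CAGCTG), the SOX core ACAAAG or the NFI-type site TTGGC.
Kcnj10: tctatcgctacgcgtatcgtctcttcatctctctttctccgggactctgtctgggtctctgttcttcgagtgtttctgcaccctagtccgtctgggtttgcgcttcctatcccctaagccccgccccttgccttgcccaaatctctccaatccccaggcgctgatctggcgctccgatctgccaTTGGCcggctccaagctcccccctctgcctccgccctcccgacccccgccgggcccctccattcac
Kcna2: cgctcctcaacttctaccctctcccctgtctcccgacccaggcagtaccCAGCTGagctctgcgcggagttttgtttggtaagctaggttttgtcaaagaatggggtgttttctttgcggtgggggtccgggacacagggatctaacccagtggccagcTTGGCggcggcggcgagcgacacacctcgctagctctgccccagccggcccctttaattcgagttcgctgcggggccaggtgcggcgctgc
Kcnj8: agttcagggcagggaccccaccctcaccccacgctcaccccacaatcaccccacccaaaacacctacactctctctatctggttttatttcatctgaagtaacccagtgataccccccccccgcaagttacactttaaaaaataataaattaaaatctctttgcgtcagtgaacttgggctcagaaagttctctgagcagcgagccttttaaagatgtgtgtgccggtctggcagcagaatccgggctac
Kcnj10 and Kcna2 each held 1 NFI-type site and Kcna2 also 1 E-box, with no overlap between them, and Kcnj8 held none of the 3 motifs. The Kcnj10 and Kcna2 windows were rich in CpG (17 and 18, against 6 in Kcnj8 and a median of 6 over 32851 windows). The NFI-type site occurred in 41.5% of all windows and 40.4% of 94 windows of 69 member genes, the E-box in 13% and 23.4%, and the SOX core in 16.5% and 10.6%. No binding was measured here, and the matches describe letters only.

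Regions were compared at each age, as the study asked how alike Pdgfra/GFP+ cells of brain and spinal cord are before and after birth. At E13.5, 6 members were called higher in brain and 13 higher in spinal cord (8.11% and 17.6% of 74), against 3.53% and 5.17% of all genes tested. With median-ratio scaling the counts were 3 and 13, against 520 and 1092 of all 18270 genes tested. At P7, 9 were called higher in brain and 5 higher in spinal cord (12.2% and 6.76%), against 2.27% and 4.35% of all genes. The direction of the majority thus differed between the ages. The median region difference of all genes was 0.05 at E13.5 and -0.19 at P7, or -0.02 at P7 with TMM rescaling. Direct tests called 20 members for a change of the region difference with age (27.0%), against 16.3% of all genes. In 12 of the 20 the difference was larger at E13.5 and in 8 at P7, a split that was not taken over all genes.

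**Figure D4:**
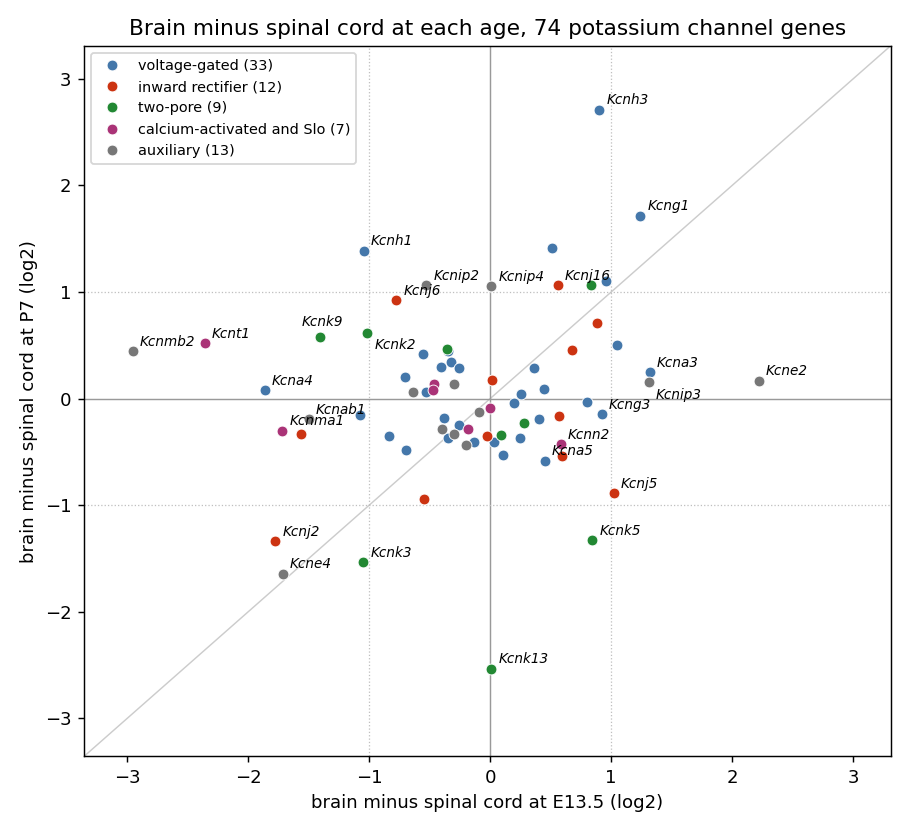
Log2 difference of brain minus spinal cord at E13.5 (x axis) and at P7 (y axis) of the 74 members tested, 1 point per gene, coloured by class. The diagonal marks equal differences and dotted lines a 2-fold difference; Kcnmb2, Kcnt1 and Kcna4 lie far left near the horizontal axis, Kcnk13 lies lowest on the vertical axis, and Kcnj2, Kcne4 and Kcnk3 lie below both zero lines.

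The embryonic differences were led by genes higher in spinal cord. Kcnmb2 differed by -2.96 ± 0.19 (brain minus spinal cord, limma adjusted p = 3.7e-07), Kcnt1 by -2.36 and Kcnma1 by -1.72, with the values given above. Kcnma1 and Kcnmb2, the BK pore and a BK beta subunit, were both higher in embryonic spinal cord, but at P7 Kcnma1 was high in both regions and Kcnmb2 low in both. Kcna4 (Kv1.4, an A-type channel) measured 6.73, 6.13 and 4.72 CPM in E13.5 spinal cord against 1.43, 0.747 and 1.66 in E13.5 brain, and 5.74 to 6.92 CPM in all P7 libraries. The difference of -1.86 at E13.5 fell to 0.08 at P7, as brain reached the spinal level, and the change of 1.94 ± 0.28 was called. Kcnk9 (TASK3, -1.41) and Kcnab1 (a Kv1 beta subunit, -1.50) showed the same order, as did Kcnk2 (-1.02), whose call was lost without replicate 3 of E13.5 brain (log2 difference -0.95) or replicate 1 of E13.5 spinal cord (-0.92).

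Of the 6 members called higher in embryonic brain, Kcna3 read 4.42, 6.15 and 6.54 CPM against 1.73, 2.13 and 2.02 in spinal cord (1.32 ± 0.17, limma adjusted p = 9.5e-05), and Kcnip3 differed by 1.31. Kcng1, Kcnf1 and Kcnj5 differed by 1.24, 1.04 and 1.02. The Kcnf1 call was lost without replicate 3 of E13.5 spinal cord (0.86) or replicate 3 of E13.5 brain (0.99), and the Kcnj5 call without replicate 1 of E13.5 brain (0.96) or replicate 1 or 2 of E13.5 spinal cord (0.9998 and 0.85). Kcne2, an accessory subunit abundant in choroid plexus, was set by single libraries. At E13.5 it measured 9.69, 0.439 and 1.45 CPM in brain against 0.179, 0.0444 and 0 in spinal cord, and at P7 0.151, 0.231 and 2.56 against 0.756, 1.14 and 0. Ttr, the leading choroid plexus transcript, was high in the same libraries, at 267, 10.1 and 36.2 CPM in E13.5 brain. After birth it read 54.7, 54.8 and 484 CPM in brain and 145, 144 and 0.372 in spinal cord. The Kcne2 difference of 2.22 ± 0.79 (adjusted p = 0.047) was lost without replicate 1 of E13.5 brain (1.25) and in 16 of 24 alternative settings in all, 9 of which left out a single library.

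Kcne4, Kcnj2, Kcnk3 and Kcng1 kept a called region difference of the same direction at both ages. Kcne4, a single-span beta subunit, measured 5.99, 5.49 and 4.83 CPM in embryonic brain against 20.2, 20.6 and 16.2 in embryonic spinal cord, and 2.27, 2.71 and 3.06 against 9.10, 9.38 and 9.71 at P7. Spinal cord was higher at both ages, by -1.71 ± 0.14 and -1.64 ± 0.14 (limma adjusted p = 3.0e-06 and 5.9e-06), although the level was lower at P7 in both. Kcnj2 was likewise higher in spinal cord, with 5.54, 6.49 and 6.07 CPM against 1.71, 0.878 and 1.77 at E13.5 and 9.48, 11.7 and 8.22 against 3.998, 3.17 and 3.49 at P7. Its neighbour Kcnj16, 38.2 kb away on chromosome 11, was higher in P7 brain (1.06 ± 0.22, adjusted p = 0.0035), a call lost without replicate 1 of P7 brain (0.98) and when the very alike P7 replicates 1 and 2 were averaged (1.02). Kcnk3 was higher in spinal cord at P7 (12.3, 12.1 and 14.1 CPM against 3.82, 4.33 and 4.15, -1.53) and at E13.5 (-1.05), the latter call being lost without replicate 3 of E13.5 spinal cord (-0.78) or of E13.5 brain (-0.92). Kcng1 alone of the 4 was higher in brain, and its P7 spinal cord libraries read 0, 0.0308 and 0 CPM, which is at most 1 read each.

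The largest difference toward spinal cord at P7 was that of Kcnk13 (THIK1), a two-pore channel. At P7 it measured 1.12, 1.52 and 1.64 CPM in brain against 9.88, 11.5 and 10.5 in spinal cord, and it lay at 0.214 to 0.522 CPM in all embryonic libraries. The regions differed by 0.01 ± 0.18 at E13.5 and at P7 by -2.53 ± 0.18 (limma adjusted p = 9.6e-07), and the change of -2.54 ± 0.25 was called (adjusted p = 1.6e-05). Myelin genes showed the same order of groups: at P7, Mag read 87.4, 91.7 and 262 CPM in brain against 2478, 2366 and 1589 in spinal cord. Microglia are also known for THIK1. Their 6 markers summed to 27.1 to 56.4 CPM in P7 brain and to 15.7 to 22.5 in P7 spinal cord, with 4 called higher in brain, while Tmem119 read 5.63 to 8.29 CPM in brain and 9.10 to 12.1 in spinal cord and was not called. The part of either cell type in the Kcnk13 difference was not tested.

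Kcnk5 was also higher in P7 spinal cord (4.48, 5.34 and 4.47 CPM against 1.48, 1.55 and 1.74, -1.33 ± 0.19), after the opposite order at E13.5, where brain libraries read 6.32, 5.53 and 8.15 and spinal cord 2.98, 2.89 and 4.72. The embryonic difference of 0.84 was under the 2-fold limit. Kcnh3 (an ELK-type channel of forebrain neurons) was higher in brain, with 3.33, 4.001 and 3.12 CPM at P7 against 0.135, 0.0925 and 0.0931 in spinal cord, by 2.71 ± 0.16 (limma adjusted p = 2.3e-07). Of the 10 neuronal markers, 2 (Stmn2 and Syt1) were called higher in P7 brain, 1 (Elavl3) was called higher in P7 spinal cord and 7 were not called, and their sum was 468 to 505 CPM in P7 brain and 506 to 539 in P7 spinal cord. The part of neurons in the Kcnh3 level was not tested. Kcnh7, Kcnip2, Kcnk10, Kcnc4 and Kcnip4 were higher in P7 brain by 1.41, 1.06, 1.07, 1.11 and 1.06. The Kcnip2 call was lost without replicate 3 of P7 spinal cord (0.99), that of Kcnc4 without replicate 2 of P7 brain (0.94) and that of Kcnip4 without replicate 2 of P7 spinal cord (0.91), and the calls of Kcnc4 and Kcnip4 were also lost with P7 replicates 1 and 2 averaged (1.05 and 0.95).

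Kcnh1 (EAG1), a voltage-gated channel of neurons, turned its region difference around. At E13.5 it measured 2.14, 1.19 and 2.95 CPM in brain against 4.65, 3.82 and 5.57 in spinal cord, and at P7 2.64, 1.95 and 3.86 against 0.918, 0.864 and 0.465. Brain libraries of the 2 ages overlapped, while spinal cord libraries fell by 2.06 log2 units (SE 0.28). The region difference went from -1.05 to 1.39, a change of 2.43 ± 0.40 (limma adjusted p = 5.6e-04). The embryonic call was lost without replicate 3 of E13.5 spinal cord (-0.92) or replicate 2 of E13.5 brain (-0.77), and the change was called in all alternatives.

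**Figure D5:**
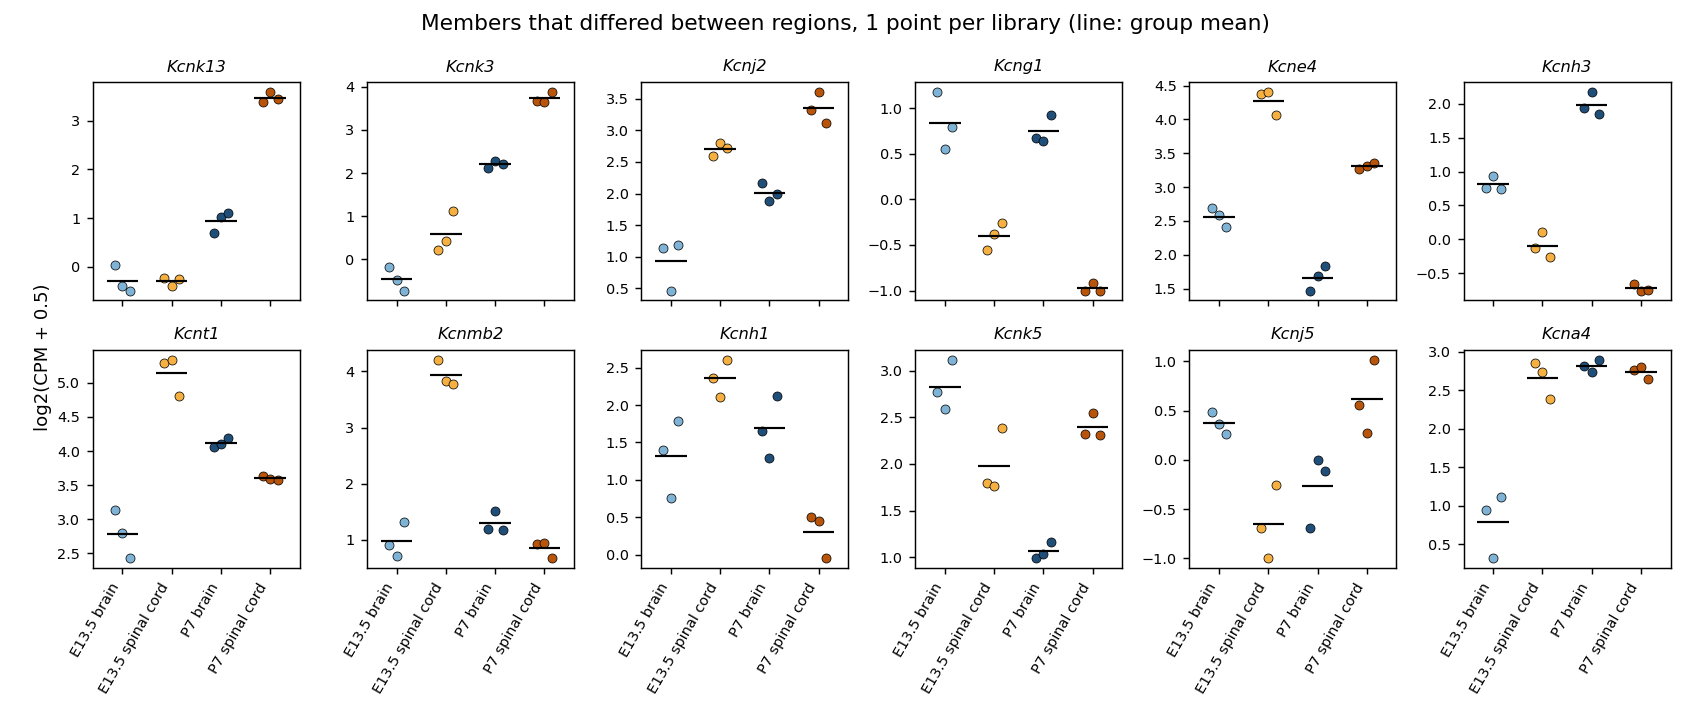
Levels of 12 members that differed between regions, as log2(CPM + 0.5) on the y axis (scale set for each panel) in the 4 groups on the x axis, 1 point per library and a line at the group mean. Kcnk13 is high in the 3 P7 spinal cord libraries alone, Kcnmb2 in the 3 E13.5 spinal cord libraries alone, and Kcne4 and Kcnj2 are higher in spinal cord at both ages.

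Members at the edge of detection were few. Kcnj1 and Kcnk16 had no read in any library, where 3 reads would have been 0.079 to 0.506 CPM, and these floors cover counting error only. Just outside the filter lay Kcnn4 and Kcnh6, with 2 libraries at 0.7 CPM or more, and Kcng4 with 1, and just inside it Kcng3 and Kcns3 with 3 and Kcnk9 with 4. Kcnj13 (Kir7.1), tested but not called, shares 49.1% of its exon bases with the opposite-strand gene Gigyf2, which averaged 119 CPM, and since the strand setting of the counting is not stated its reads may not all be its own. In all, 16 of the 74 members were called in no comparison, among them Kcnb2, a count that was not taken over all genes.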

How the data were processed

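Total RNA of the 12 pools was sequenced as stranded libraries. Reads were aligned with STAR 2.5.0a to mm10 and counted by gene with featureCounts 1.5.0-p1 (GENCODE), with shared reads split as fractions and rounded, per the study's methods. Its strand setting is not given in the sources used here. The authors deposited CPM (counts per 1000000 reads of a rescaled library size), and 3 of the deposited columns exceed the total that CPM allows and are called a signal here. All values (100%, tolerance 0.01 read) came back as whole reads. Symbols, exons and overlaps are from GENCODE M21. Genes with 0.7 CPM in at least 3 libraries (18319) were tested with limma 3.58.1 (trend) on log2(CPM + 0.5), 1 mean per group, without a replicate block. The sample titles do not say what a replicate number marks. Mean correlations of same-numbered libraries ran from -0.16 to 0.27 over the pairs of groups. The highest was between the regions at E13.5 (0.27, against -0.13 for unlike numbers), so pairing at that age was not excluded. Blocks by replicate number were tried as alternatives. Values after ± are SEs for log2 changes and SDs for levels. limma-voom, edgeR 4.0.16 and DESeq2 1.42.0 on the whole reads, other filters, pseudocounts and scalings and leaving out each library were tried. Tested on simulated data for age in brain, limma recovered 200 of 200 genes changed 4-fold among 18319, with 0 false calls. The changed genes were drawn from the better expressed ones alone, and every gene and library was given the same spread setting. The simulation therefore does not cover genes with few reads, changes near 2-fold or the wider spread of replicate 3 of E13.5 spinal cord. The members, classes and lists were chosen with earlier results of these data known, and the study itself names potassium channels among its findings. Values in every library are given for many of the members with the largest called changes, those highest per kilobase, those of opposite directions and a list of glial channels. Others of these, such as Kcnk9, Kcnj5 and Kcng3, are given by log2 changes or ranges alone. Further genes were added after their values were seen. Some members enter the counts and sums but are not reported here by name.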

Additional observations from a re-analysis of the deposited data

Results flagged for a closer look

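The following members differed between brain and spinal cord in their change with age, by the test of that difference in limma (adjusted p under 0.05 and over 2-fold). Values are the region difference (brain minus spinal cord) at P7 minus that at E13.5, in log2 units. It was 3.40 for Kcnmb2, 2.88 for Kcnt1 and 2.43 for Kcnh1. It was 1.99 for Kcnk9, 1.94 for Kcna4, 1.81 for Kcnh3 and 1.70 for Kcnj6. It was 1.63 for Kcnk2, 1.59 for Kcnip2, 1.42 for Kcnma1, 1.31 for Kcnab1 and 1.05 for Kcnip4. Toward spinal cord it was -2.54 for Kcnk13, -2.17 for Kcnk5 and -1.91 for Kcnj5. It was -1.16 for Kcnip3, -1.07 for Kcna3, -1.07 for Kcng3, -1.04 for Kcna5 and -1.01 for Kcnn2. The calls of Kcnip3, Kcna3, Kcna5 and Kcnn2 were lost with TMM or median-ratio scaling. Values near 2-fold were also lost when single libraries were left out: Kcnip4 in 8 such settings (0.72 to 1.06) and in 12 of 25 settings in all, Kcna5 in 6 (-1.02 to -0.87), Kcnn2 in 5 (-0.99 to -0.87), Kcna3 in 3 (-0.98 to -0.97) and Kcng3 in 2 (-0.92 to -0.91). The Kcng3 call was lost in 8 of 21 settings, among them median-ratio scaling, limma-voom and edgeR. Kcng3 passed the filter only through its E13.5 brain libraries. With the main settings Kcna5 was called in no comparison of ages or of regions. Its rise in spinal cord was called with limma-voom (1.36), edgeR (1.43), DESeq2 (1.43) and a pseudocount of 0.1 (1.13).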

How the results depend on the processing

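Of the 133 calls over the 5 comparisons, 102 were kept in every alternative (32 of 39 for age in brain, 36 of 41 for age in spinal cord, 10 of 19 for region at E13.5, 10 of 14 for region at P7 and 14 of 20 for the change), and no called value changed sign. Of 9357 recomputed values, 115 lost and 254 gained a call. These values include the setting of the adjusted p alone, which drops the 2-fold limit and can only add calls. Members lower at P7 in brain (4) numbered 7 with limma-voom, 7 with edgeR and 7 with DESeq2. Members higher in brain at E13.5 (6) were the least stable count: 10 and 2 with a pseudocount of 0.1 and 1, 3 with a filter of 2 CPM, 3 with median-ratio scaling, 11 with edgeR and 13 with DESeq2. Some of these genes have few reads, and others lie near the 2-fold limit, such as Kcnk5 (1.01 with DESeq2). A cause beyond the settings themselves was not tested. With the adjusted p alone the counts were 15 lower at P7 in brain, 23 lower at P7 in spinal cord, 15 higher in brain and 22 higher in spinal cord at E13.5, 14 and 11 after birth, and a total of 31 changed with age. Over all 18319 genes tested the numbers were 6880, 5664, 3288 and 2691, 1052 and 4439, and 2036 and 5254 for the 2 directions of the change. For the change, the member share was then close to that of all genes. The same held for members lower at P7 in spinal cord and higher in brain at E13.5. Leaving out 1 library at a time gave 35 to 36 members higher and 3 to 5 lower at P7 in brain, 30 to 32 higher and 10 to 11 lower in spinal cord, 4 to 8 higher in brain and 10 to 13 higher in spinal cord at E13.5, 8 to 9 and 5 to 6 after birth, and 17 to 20 changed with age. A fit with a replicate block gave counts of 35 and 4, 30 and 11, 5 and 13, 9 and 5, and 21, in the same order. With a block within each age, 675 of all genes tested were called higher in brain and 958 higher in spinal cord at E13.5. Without a block these numbers were 647 and 948. With P7 replicates 1 and 2 averaged, 6 members were higher in P7 brain. The setting chosen after seeing the data (TMM without replicate 3 of E13.5 spinal cord) gave 10 members higher in embryonic spinal cord. Members under about 1 CPM rest on few reads, mostly in replicate 3 of E13.5 spinal cord, where 1 read was 0.169 CPM.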

Other observations

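A list of 30 further genes of potassium channels and potassium transport, 25 of them tested, was also compared between ages. In brain 8 were called higher and 3 lower at P7, against 11.0% and 16.7% of all genes tested, and in spinal cord 9 higher and 6 lower, against 16.9% and 18.2%, with median log2 changes of 0.51 and 0.45. Hcn2, a hyperpolarization-activated cation channel, read 1.04 to 2.70 CPM in the embryonic libraries and 14.9 to 20.4 in the postnatal ones, a rise of 3.38 log2 units in brain and of 2.76 in spinal cord. Sodium-potassium pump subunits, which build the potassium gradient, were called higher in 4 cases in brain and 2 in spinal cord. Atp1b1 was among them, with 9.12 to 11.3 CPM in E13.5 brain and 54.9 to 64.1 in P7 brain.

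Cation-chloride cotransporters went both ways. Slc12a7 (KCC4), which moves potassium and chloride out of cells, fell from 43.9 to 66.8 CPM at E13.5 to 5.15 to 9.69 at P7, by 2.68 in brain and 2.93 in spinal cord. Slc12a2 (NKCC1), which moves them in, rose in spinal cord, from 137, 133 and 98.2 CPM to 587, 583 and 457, a rise called in limma, and differed by 0.45 in brain. The test of that difference was called (-1.70 ± 0.21). Myelin genes stood in the same order of groups, and their part in it was not tested.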
